A study of Mus musculus with 6 samples.

Results

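The transcriptional machinery that sets how many mitochondria a cell builds was read from inguinal fat, the subcutaneous depot of the groin, in 10 genes: Ppargc1a, Ppargc1b, Ppara, Esrra, Esrrg, Nrf1, Gabpa, Tfam, Tfb2m and Perm1. They were chosen by name, and every array probe carrying one of these names was used. That gave 19 probes of the 55681 non-control probes on the array, which carry 34787 gene symbols in all. Of these, 18 probes of 9 genes were found under the member's own name. The single Perm1 probe carries the older name 2310042D19Rik and was matched to Perm1 through its transcript accession. All 19 probes were well above background on all 6 arrays and 0 were saturated, so each of the 19 passed the filter on dim probes.

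The samples were 6 one-colour expression arrays from male C57BL/6J mice, an inbred laboratory strain, 3 in each of 2 groups. The group titled DIO_CR_WR (diet-induced obesity, calorie restriction, weight regain) began at 2 months of age with 1 month on a diet giving 60% of its energy as fat. A calorie restriction of roughly 3 weeks then brought their body weight down to that of even-aged chow-fed mice, and they were returned to free access to the high fat diet. The group titled DIO ate chow until that last step and then received the same free high fat diet, so both groups were on high fat diet when fat was taken. The comparison therefore sets weight regain after restriction against a first weight gain. The titles fix the groups here, although the protocol text gives the abbreviation DIO to the weight regain mice and CTR to the others. The labels do not say whether an array holds RNA from 1 mouse or from a pool, so p-values measure the spread between these samples, which may be technical. Labelled ages are 6, 7 and 8 months in DIO and 9, 10 and 11 months in DIO_CR_WR, so age and group do not overlap. No 2 samples share an age and the steps between them are all 1 month, so whether they are true ages is uncertain. DIO replicate 1 and all DIO_CR_WR arrays lie on slide 1, and DIO replicates 2 and 3 lie on slide 2.

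PGC-1α and PGC-1β, the products of Ppargc1a and Ppargc1b, are coactivators: they bind no DNA themselves but dock on transcription factors and recruit the machinery that opens chromatin and starts transcription. The factors they serve include the fatty acid receptor PPARα (Ppara), the estrogen-related receptors (Esrra, Esrrg) and the nuclear respiratory factors NRF1 and GABPA, which switch on respiratory chain genes of the nucleus and the genes Tfam and Tfb2m. TFAM packages mitochondrial DNA and, with TFB2M, starts its transcription, while PERM1, named as a muscle regulator induced by PGC-1 and estrogen-related receptors, acts on the same programme. In fat this circuit is best known from brown and beige adipocytes, where cold and adrenergic signals raise PGC-1α.

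Several of these genes are themselves wired into the circuit, and the promoters that hold a binding motif of one of the factors are shown for that reason. The windows below are 30 bases from RefSeq promoter sequences (assembly GRCm38.p6), 5′ to 3′ on the strand of the gene, with the motif in capitals.
Ppara, chr15:85735735-85735764, + strand: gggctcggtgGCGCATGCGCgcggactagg
Esrra, chr19:6921824-6921853, − strand: ccccctgttttGCATGCGCaggccggcccc
Tfb2m, chr1:179546245-179546274, − strand: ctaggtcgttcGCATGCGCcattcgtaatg
Tfam, chr10:71238073-71238102, − strand: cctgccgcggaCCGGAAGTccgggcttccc
The Ppara, Esrra and Tfb2m windows hold the NRF1 core GCATGCGC, in Ppara as 2 overlapping matches on opposite strands that share most of their bases. The Tfam window holds CCGGAAGT, the motif of GABPA and other ETS factors. Searched on both strands of windows from 250 bases before to 50 bases after each start, the NRF1 core was in at least 1 promoter of 3 of the 9 members with an entry, against 3.05% of all 27025 genes and 2.71% of all 32851 promoters. The ETS motif was in 1 of 9 members, against 4.31% of genes and 3.89% of promoters. The estrogen-related receptor motif TCAAGGTCA and the cAMP response element TGACGTCA were in 0 of 9 members, against 0.466% and 2.03% of genes (0.423% and 1.79% of promoters). These counts describe letters in a window and say nothing of binding.

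The signals below come from 60-base probes, of which the first 30 bases are given for the genes with the largest differences and for Gabpa, whose probes pointed in opposite directions. Positions are those of the array files in build mm9.
Perm1, chr4:155595141-155595200, + strand: agggttggatattctccaagagccccggac
Ppargc1a, chr5:51848928-51848987, − strand: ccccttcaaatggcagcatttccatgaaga
Ppargc1a, chr5:51846926-51846985, − strand: aggccaatgcagctaattttgacagctgca
Ppara, chr15:85632110-85632169, + strand: ctttgaaaacctacaagtcaaggtgtggcc
Ppara, chr15:85632534-85632593, + strand: aaatgctcctctaggcccctcctttggcag
Ppara, chr15:85637193-85637252, + strand: cctgtaagctgatgaatgtaaagagttaat
Gabpa, chr16:84860691-84860750, + strand: tgaagactcttattggatacagtgcagcag
Gabpa, chr16:84863822-84863881, + strand: aagggaggagaatttttgcatacattttta
Exon and UTR annotation of build mm9 was not used here, so a probe is placed by its gene name and position alone.

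Levels are scaled log2 signals, the log2 of a probe's signal minus the log2 of the 75th percentile on that array, and 0 therefore means a signal equal to that percentile. Raw 75th percentiles ran from 4605 to 4991 in DIO and from 6050 to 7126 in DIO_CR_WR. The share of probes well above background ran from 68.2% to 79.2% in DIO and from 51.6% to 65.7% in DIO_CR_WR. With this scaling the median probe was lower in DIO_CR_WR by 0.19 on the log2 scale, and 3 arrays a group limit the precision of every value. Over 38460 kept probes, 0 passed an adjusted p of 0.05 in limma (percent called 0), the smallest adjusted p being 0.119. At an unadjusted p under 0.05, 7986 probes were lower in DIO_CR_WR (20.8%) and 2055 higher (5.34%). Every DIO_CR_WR array lay below every DIO array for 25.6% of probes and above for 7.29%.

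Against that background, 7 of the 19 probes of the biogenesis regulators (36.8%) were lower in DIO_CR_WR at an unadjusted p under 0.05 and 0 were higher. The groups did not overlap for 8 probes below (42.1%) and for 1 above (5.26%). Both the 7 and the 8 include every Ppara probe, so 1 gene is counted more than once in these shares. None of the 19 probes passed the adjusted threshold, with limma adjusted p from 0.119 to 0.871. The fold change was negative for 15 of 19 probes, with a median of −0.40 on the log2 scale, or −0.21 relative to the median of all probes. Most kept probes were negative as well: 51.35% lay at or below −0.17 and 72.22% at or below 0.10. The 4 genes whose every probe lay below without overlap were Ppargc1b, Ppara, Tfb2m and Perm1, and Ppargc1a did so on its brighter probe only.

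**Figure D1:**
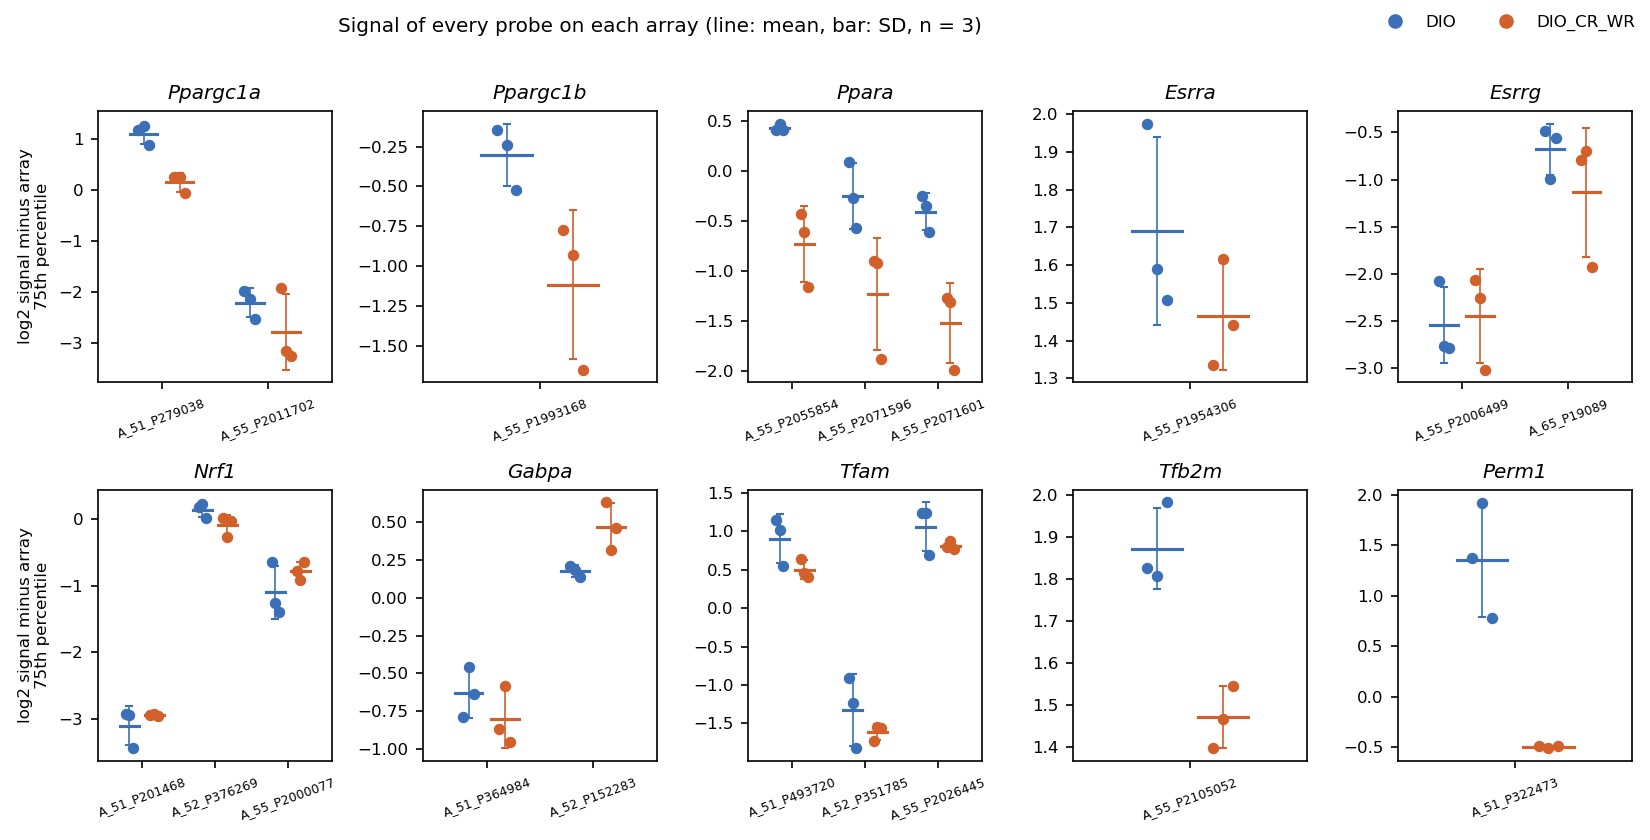
Scaled log2 signal (log2 signal minus the array's 75th percentile, vertical axis) of all 19 probes of the 10 genes on each array, with DIO in blue and DIO_CR_WR in orange, the horizontal line the mean and the bar the SD of 3 arrays. Perm1, Ppargc1b, Tfb2m and all 3 Ppara probes show separate groups with DIO_CR_WR lower, and 1 Gabpa probe shows separate groups with DIO_CR_WR higher.

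Among the coactivators, Ppargc1a was read by a pair of probes 2002 bases apart. Its brighter probe (A_51_P279038) gave scaled log2 signals of 1.19, 1.26 and 0.89 in DIO replicates 1, 2 and 3, and of 0.27, 0.26 and −0.05 in DIO_CR_WR. Every DIO array was above every DIO_CR_WR array. The fold change was −0.96 ± 0.18 on the log2 scale (SE, n = 3 a group), or 1.94-fold lower, with limma adjusted p = 0.122. The dimmer probe (A_55_P2011702) gave −1.96, −2.12 and −2.52 in DIO and −1.91, −3.15 and −3.25 in DIO_CR_WR. Here DIO_CR_WR replicate 1 was the highest of all 6 arrays and the groups overlapped. Its fold change was −0.57 ± 0.39 (SE), with limma adjusted p = 0.376, and was −0.998 without DIO_CR_WR replicate 1 and −0.33 without DIO_CR_WR replicate 3. The within-array difference between the probes did not separate the groups (exact permutation test, two-sided, p = 0.7, n = 3 a group). The isoforms that each probe reads were not analysed here.

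Ppargc1b, the paralogue that also drives mitochondrial gene expression, had 1 probe (A_55_P1993168, chr18:61458222-61458281, mm9). It gave −0.14, −0.24 and −0.52 in DIO and −0.77, −0.93 and −1.65 in DIO_CR_WR. The groups did not overlap, and DIO_CR_WR replicate 3 was the lowest array. The fold change was −0.82 ± 0.27 (SE), or 1.76-fold lower, with limma adjusted p = 0.145. Both coactivator genes thus read lower after weight regain on at least 1 probe, short of the adjusted threshold. Pprc1, the PGC-1-related coactivator, differed by 0.06 ± 0.20 (SE).

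Perm1 differed most of the 10 genes. Its probe (A_51_P322473) gave scaled log2 signals of 1.37, 1.92 and 0.78 in DIO, and of −0.49, −0.51 and −0.49 in DIO_CR_WR. The 3 DIO_CR_WR arrays lay within 0.014 (SD) of each other, while the DIO arrays spread by 0.57 (SD), the lowest of them at 0.78. The fold change was −1.85 ± 0.29 (SE; 95% interval −2.55 to −1.15), or 3.60-fold lower, with limma adjusted p = 0.119. Its unadjusted p ranked 149th of the 38460 kept probes. In the slide 1 arrays alone, where DIO replicate 1 is the only DIO array, the difference was −1.86.

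Ppara, the fatty acid receptor that turns on fatty acid oxidation genes, was read by 3 probes. The most upstream of them (A_55_P2055854) gave 0.42, 0.48 and 0.41 in DIO and −0.42, −0.61 and −1.16 in DIO_CR_WR. The 3 DIO arrays were nearly equal and every DIO_CR_WR array was below them. Its fold change was −1.17 ± 0.22 (SE), or 2.24-fold lower, with limma adjusted p = 0.120. The second probe (A_55_P2071601, 424 bases further) gave −0.25, −0.35 and −0.61 in DIO and −1.27, −1.31 and −1.98 in DIO_CR_WR. The remaining Ppara probe (A_55_P2071596) gave 0.09, −0.27 and −0.57 in DIO and −0.89, −0.92 and −1.87 in DIO_CR_WR. Neither of these probes overlapped between groups, and DIO_CR_WR replicate 3 was lowest on all 3 probes. Their fold changes were −1.12 ± 0.24 and −0.98 ± 0.32 (SE), with limma adjusted p of 0.125 and 0.146. Across the 6 arrays the 3 probes followed one another, with correlations of 0.92 to 0.98, as probes of 1 gene on the same arrays.

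The estrogen-related receptors did not separate the groups. Esrra, a receptor that drives respiratory chain genes, gave 1.98, 1.59 and 1.51 in DIO and 1.34, 1.62 and 1.44 in DIO_CR_WR. The groups overlapped, with a fold change of −0.23 ± 0.19 (SE; 95% interval −0.68 to 0.23) and limma adjusted p = 0.472. Esrrg, a receptor of oxidative tissues, had probes 192 bases apart. One (A_65_P19089) gave −0.485, −0.996 and −0.563 in DIO and −0.79, −0.70 and −1.92 in DIO_CR_WR, a fold change of −0.46 ± 0.36. The other (A_55_P2006499) gave −2.07, −2.77 and −2.79 in DIO and −2.07, −2.26 and −3.01 in DIO_CR_WR, a fold change of 0.10 ± 0.32. Both overlapped, with limma adjusted p of 0.446 and 0.871. The within-array difference between them, A_65_P19089 minus A_55_P2006499, was 1.59 to 2.23 in DIO and 1.09 to 1.56 in DIO_CR_WR, without overlap (exact permutation p = 0.1, two-sided, the smallest possible; 0.4 after adjustment over 12 probe pairs).

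The respiratory factors Nrf1 and Gabpa gave small differences whose sign depended on the probe. The Nrf1 probe A_52_P376269 gave 0.18, 0.23 and 0.02 in DIO and 0.01, −0.27 and −0.03 in DIO_CR_WR, without overlap, and a fold change of −0.24 ± 0.16 (SE) with limma adjusted p = 0.382. The Nrf1 probe A_55_P2000077 gave −0.64, −1.25 and −1.40 in DIO and −0.78, −0.91 and −0.63 in DIO_CR_WR, with overlap and a fold change of 0.33 ± 0.24. The remaining Nrf1 probe (A_51_P201468) ran from −3.44 to −2.92 in DIO and from −2.95 to −2.93 in DIO_CR_WR, a fold change of 0.16 ± 0.19. Probe A_52_P376269 lies 35552 and 36894 bases upstream of the other two. Its within-array differences from those probes separated the groups, with exact permutation p = 0.1 (two-sided), the smallest that 3 against 3 arrays can give, and 0.4 after adjustment.

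Gabpa, the DNA-binding subunit of the second respiratory factor, gave 0.21, 0.19 and 0.14 in DIO and 0.63, 0.32 and 0.46 in DIO_CR_WR on probe A_52_P152283. This was the 1 member probe with every DIO_CR_WR array above every DIO array. Its fold change was 0.29 ± 0.16 (SE), or 1.23-fold higher, with limma adjusted p = 0.272. The other Gabpa probe (A_51_P364984), 3131 bases away, gave −0.79, −0.45 and −0.64 in DIO and −0.87, −0.58 and −0.96 in DIO_CR_WR, with overlap and a fold change of −0.17 ± 0.18. The within-array difference between them overlapped between groups (exact permutation p = 0.2, two-sided). No direction can be given for Gabpa as a gene.

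The factors that work inside mitochondria gave modest negative values. Tfb2m, which melts the mitochondrial promoter for the RNA polymerase, gave 1.83, 1.81 and 1.98 in DIO and 1.40, 1.47 and 1.55 in DIO_CR_WR. The groups did not overlap and the spread within each was below 0.10 (SD), for a fold change of −0.40 ± 0.15 (SE), 1.32-fold lower, and limma adjusted p = 0.165. Tfam was read by 3 probes whose groups all overlapped. Its probe A_51_P493720 gave 1.14, 1.02 and 0.55 in DIO and 0.63, 0.46 and 0.40 in DIO_CR_WR, a fold change of −0.41 ± 0.21. The other two Tfam probes gave −0.29 ± 0.26 (A_52_P351785) and −0.25 ± 0.20 (A_55_P2026445), and limma adjusted p ran from 0.255 to 0.497 over the 3.

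**Figure D2:**
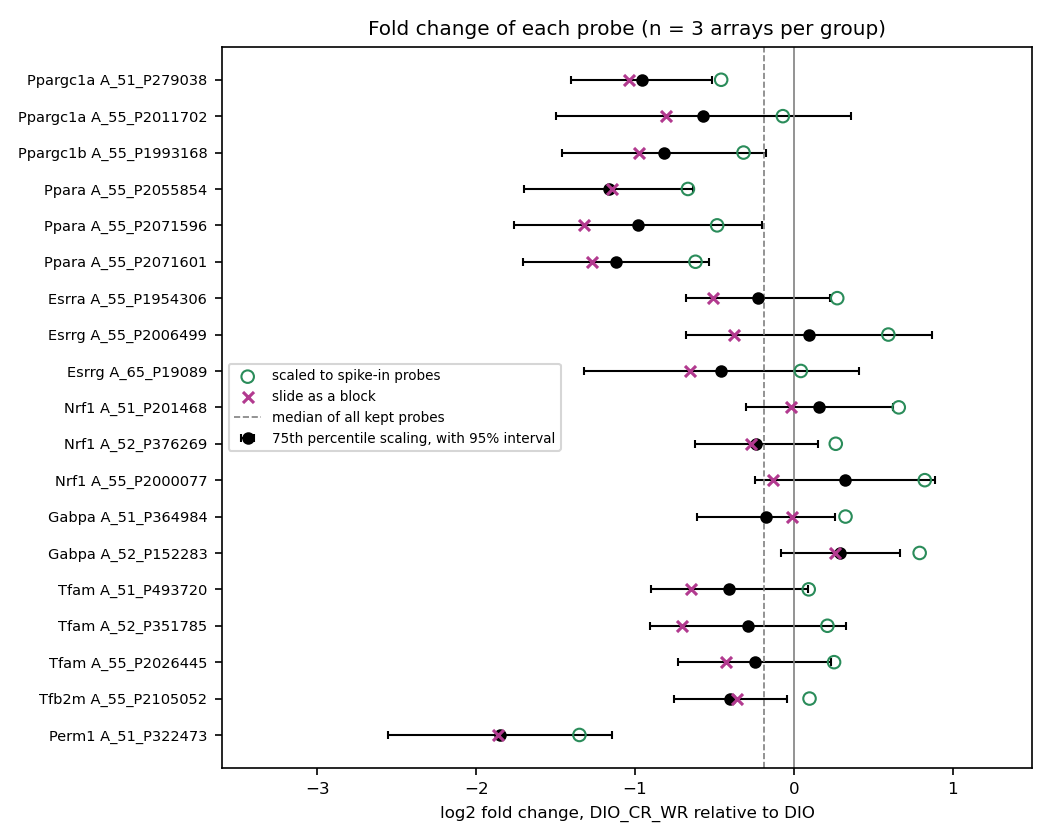
Log2 fold change of DIO_CR_WR relative to DIO (horizontal axis) for each of the 19 probes, with the 95% interval of the limma fit as bars, the value with signal scaled to spike-in probes as open circles and the value with slide as a block as crosses; the dashed line is the median of all kept probes. Perm1, both coactivators and Ppara stay below 0 in all 3, whereas Tfb2m, Tfam and Esrra cross 0 when scaled to spike-ins.

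How the arrays are scaled decides the sign of the smaller values. The median of all probes was −0.19 with 75th percentile scaling and 0.31 when arrays were scaled to 8 spike-in probes, RNAs added at known amounts. The share of lower calls among all probes at an unadjusted p under 0.05 was 79.5% with the first and 12.4% with the second. Under spike-in scaling Perm1 was at −1.35, Ppargc1a at −0.46 on its brighter probe, Ppargc1b at −0.32 and the Ppara probes between −0.67 and −0.48. Tfb2m, Esrra, all 3 Tfam probes, 1 Nrf1, 1 Gabpa and 1 Esrrg probe changed sign to positive, and 2 member probes were lower and 3 higher at an unadjusted p under 0.05. Scaling by 75th percentile, array median or spike-ins shifts all probes of an array alike, so a fold change relative to the median of all probes is the same in these 3 by construction, and 14 of the 19 probes were below that median. Under quantile normalization, with or without normexp, which can change that count, it was 15 of 19.

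Labelled age and slide touch these results too. With age as a covariate, 0 member probes were lower at an unadjusted p under 0.05, and Ppargc1b was at 0.13 and 1 Ppara probe (A_55_P2071596) at 0.25, while Perm1 was at −1.41, the brighter Ppargc1a probe at −0.48 and Tfb2m at −0.63. Since age and group do not overlap, they cannot be told apart, and these values mean little if the labelled ages are not true ages. In the slide 1 arrays, Ppargc1a was at −1.04 on its brighter probe, Ppargc1b at −0.97, the Ppara probes at −1.15, −1.27 and −1.32, and Tfb2m at −0.36, all resting on DIO replicate 1.

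The wider pathway was described through 4 lists with 1 probe a gene, for which 21% of all genes were lower and 5.32% higher at an unadjusted p under 0.05. None of the listed genes passed the adjusted threshold. Of 28 respiratory chain and mitochondrial genes driven through NRF1, GABPA and the estrogen-related receptors, 14 were lower and 0 higher, with a median of −0.48. Ndufb5, a complex I subunit, was at −0.71 ± 0.16 and Uqcrc1, a complex III core protein, at −0.75 ± 0.17 (SE; limma adjusted p of 0.126 and 0.125). The cytochrome oxidase subunits Cox5a and Cox4i1 were at −0.81 ± 0.19 and −0.77 ± 0.18, and citrate synthase (Cs) at −0.56 ± 0.15. The list's median depended on the scaling: it was −0.13 with normexp and quantile normalization, −0.12 with quantile normalization alone and 0.02 with spike-in scaling, where the medians of all probes were −0.06, −0.07 and 0.31.

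Of 20 fatty acid oxidation genes that PPARα controls, 7 were lower and 2 higher, with a median of −0.24. Fabp3, a fatty acid carrier of heart and muscle, was at −0.90 ± 0.19 and Ech1, a beta-oxidation enzyme, at −0.87 ± 0.15 (SE; limma adjusted p of 0.123 and 0.119). Cyp4a10, a classical PPARα target of liver, was among the higher ones, at 1.09 ± 0.31. The list thus held values in both directions beside the lower Ppara signals, and its median turned to 0.02 with normexp and quantile normalization, 0.07 with quantile normalization alone and 0.26 with spike-in scaling.

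Of 28 upstream regulators and partners of PGC-1, 6 were lower and 0 higher, with a median of −0.20, close to that of all probes, and of 0.30 with spike-in scaling. Mef2d, a muscle transcription factor, was at −0.77 ± 0.19 (limma adjusted p = 0.129). Esrrb, the remaining estrogen-related receptor, was well above background on all 3 DIO arrays and on 0 of 3 DIO_CR_WR arrays. It was at least 1.63-fold lower (limma adjusted p = 0.131), a bound set by the dimmest measurable signal on the DIO_CR_WR arrays. The background was less even there. The SD of negative control signals was 28.6, 10.5 and 7.63 on DIO_CR_WR replicates 1, 2 and 3, and 4.45 to 6.18 in DIO. Sirt1, the deacetylase of PGC-1α, was at −0.41 ± 0.21 and Pparg, the adipocyte master regulator, at −0.44 ± 0.19. Their unadjusted limma p was 0.098 and 0.055. For Sirt1, DIO replicate 1, on slide 1, was at 1.13, against 1.03 to 1.12 in DIO_CR_WR. DIO replicates 2 and 3, on slide 2, were at 1.52 and 1.84. For Pparg, DIO replicate 1 was at 3.08, against 2.80 to 3.04 in DIO_CR_WR, and DIO replicates 2 and 3 were at 3.37 and 3.60.

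Of 21 genes that copy and transcribe mitochondrial DNA, 3 were lower and 2 higher, against 21% and 5.32% of all genes. The median was −0.26, or −0.07 relative to the median of all probes, and turned to 0.24 with spike-in scaling. Endog, a mitochondrial nuclease, was at −0.65 ± 0.15 and Lrpprc, which stabilises mitochondrial messengers, at −0.51 ± 0.14 (SE; limma adjusted p of 0.125 and 0.136), and at −0.15 and −0.0094 with spike-in scaling. The mitochondrial RNA polymerase Polrmt, which works with TFAM and TFB2M, was at −0.38 ± 0.17, and Tfb1m, the paralogue of Tfb2m that modifies ribosomal RNA, at 0.30 ± 0.27. The 2 higher genes were Mterf3 at 1.06 ± 0.42 with overlap and Tk2 at 0.63 ± 0.21 without. For Mterf3, DIO replicate 1, on slide 1, was at 1.47, against 1.34 to 1.75 in DIO_CR_WR. DIO replicates 2 and 3, on slide 2, were at 0.02 and −0.01. For Tk2, DIO replicate 1 was at −0.15, against 0.01 to 0.15 in DIO_CR_WR, and DIO replicates 2 and 3 were at −0.72 and −0.70.

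**Figure D3:**
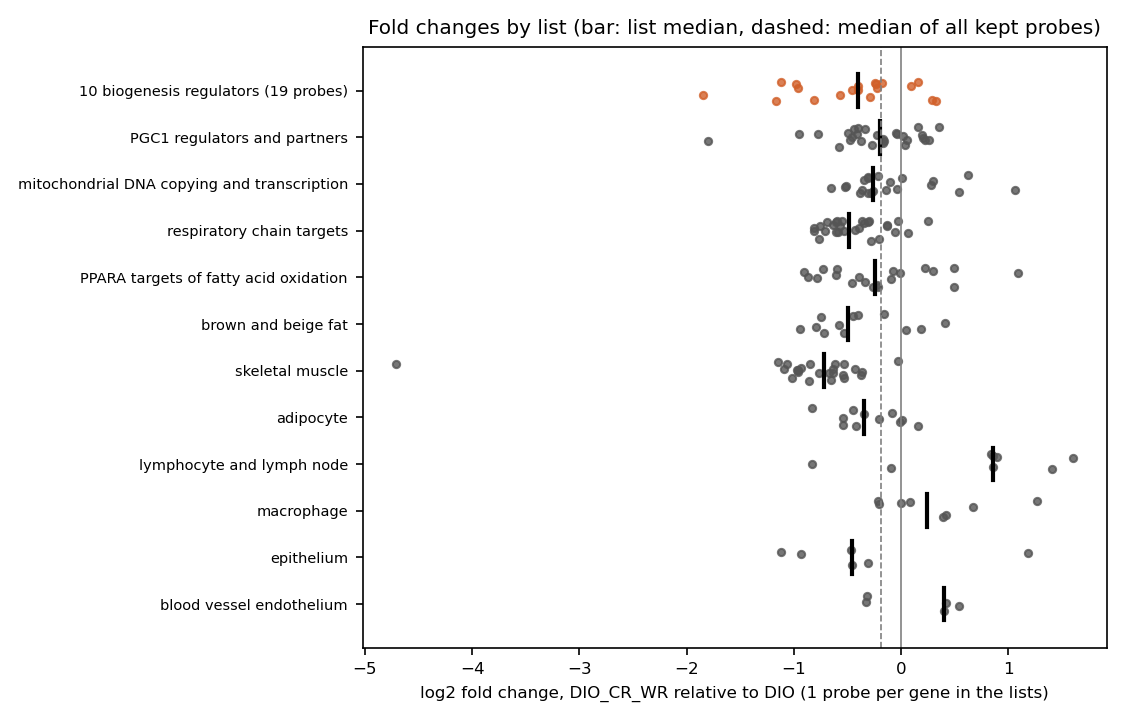
Log2 fold change of DIO_CR_WR relative to DIO (horizontal axis) for the 19 member probes (orange) and for each gene of 11 lists (grey, 1 probe a gene), with list medians as bars and the median of all kept probes dashed. The skeletal muscle list has the lowest median, −0.72, and the lymphocyte list the highest, 0.86.

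Markers of other cell types differed as well. Over all genes, 21% were lower and 5.32% higher at an unadjusted p under 0.05. The skeletal muscle list, 24 genes of muscle fibres, was lower for all 24, with 14 lower and 0 higher at that threshold and a median of −0.72. Its summed signal, in multiples of the array's 75th percentile, was 394 to 454 in DIO and 246 to 284 in DIO_CR_WR. Ckm, the muscle creatine kinase, was at −0.54 ± 0.16, Atp2a1, the calcium pump of fast fibres, at −1.06 ± 0.19, Casq1 at −1.14 ± 0.20 and skeletal actin Acta1 at −0.53 ± 0.39 (SE). The mean signal of these 4 markers was above the array's 75th percentile in both groups. The list's median was −0.46 with normexp and quantile normalization, −0.36 with quantile normalization alone and −0.22 with spike-in scaling, under which Acta1 was at −0.03 and Ckm at −0.04; with slide as a block Acta1 was at 0.16. In bulk tissue, fewer cells of a type and less RNA per cell cannot be told apart. Perm1, Ppargc1a, Ppara and the oxidative genes are also expressed in muscle.

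The level of the members on the scale of that list was therefore computed, a choice made after seeing the data. The mean of the muscle list differed by −0.89, or −0.72 without Myh2, a myosin heavy chain that was at −4.71 ± 1.36. Relative to the muscle list, Ppargc1a was at −0.07 ± 0.25 on its brighter probe, Ppargc1b at 0.07 ± 0.32 and the Ppara probes between −0.28 and −0.09, and each overlapped between groups. Without Myh2 these were −0.23, −0.09 and −0.44 to −0.26, all with overlap. Perm1 was at −0.96 ± 0.26 (limma adjusted p = 0.029), or −1.13 without Myh2 (limma adjusted p = 0.045), with every DIO_CR_WR array below every DIO array in both. The unadjusted limma p was 0.0061, or 0.0036 without Myh2. Without scaling to the list it was smaller, 0.000534, although the adjusted p was larger, 0.119. The adjustment runs over all probes, and many were called higher on this scale. Passing the threshold here is therefore not stronger evidence for Perm1. On the scale of the muscle list the median of all probes was 0.70 higher in DIO_CR_WR, or 0.53 without Myh2, and most calls were in that direction. Lower calls at the adjusted threshold were 0.112% of all probes, against 33.0% higher, and 0.0884% against 11.7% without Myh2. The part of muscle RNA in these results was not tested.

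**Figure D4:**
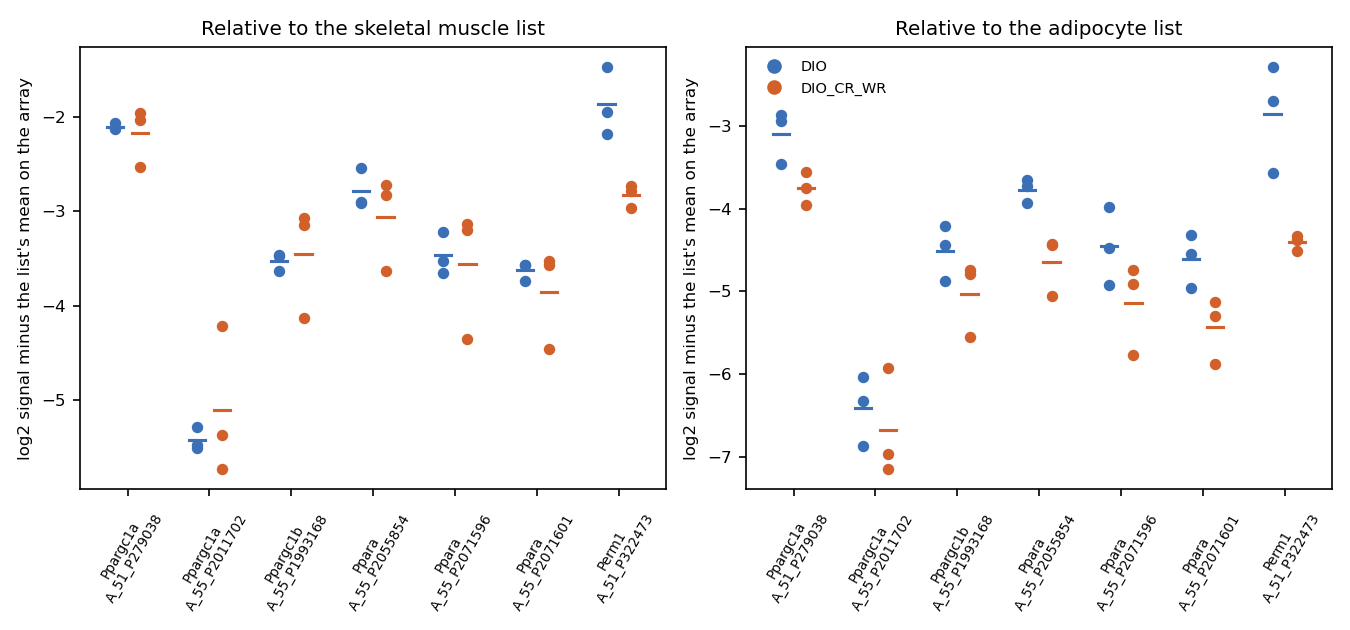
Log2 signal of the Ppargc1a, Ppargc1b, Ppara and Perm1 probes minus the mean log2 signal of the skeletal muscle list (left) or of the adipocyte list (right) on the same array, with DIO in blue, DIO_CR_WR in orange and lines at the group means. Only Perm1 separates the groups relative to the muscle list among these 7 probes, while Perm1, the brighter Ppargc1a probe and 2 Ppara probes do so relative to the adipocyte list.

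The labelled tissue was checked on 11 adipocyte genes, all measured on the arrays. At an unadjusted p under 0.05, 4 were lower and 0 higher, against 21% and 5.32% of all genes. Adipoq, the adipocyte hormone adiponectin, was at 0.16 ± 0.32 and overlapped, Cfd (adipsin) was at −0.83 ± 0.20 and the insulin-regulated glucose transporter Slc2a4 at −0.54 ± 0.16 (SE). The list's mean differed by −0.30, and relative to it Perm1 was at −1.55, Ppargc1a at −0.66 and −0.27, Ppargc1b at −0.52 and the Ppara probes between −0.87 and −0.69. Of 12 brown and beige fat genes, 2 were lower and 0 higher at that threshold, so the share of lower genes was not above that of all genes. Ucp1, the uncoupling protein that defines those cells, was at −0.40 ± 0.72 with overlap. The 2 lower genes, which muscle also expresses, were Cox7a1 at −0.79 ± 0.29 with overlap and Cox8b at −0.58 ± 0.15 without. Otop1 at −0.94 ± 0.42 and Cidea at −0.53 ± 0.24 did not overlap either. That made 3 of the 12 genes below without overlap, against 25.6% of all probes. Of the 12 values 9 were negative, while the median of all probes was also negative, at −0.19.

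By likeness over the 6 arrays, the genes whose scaled signal most resembled the brighter Ppargc1a probe among 16146 symbols were Ciao2a, Rxrg and Nenf, with Pearson r of 0.998, 0.996 and 0.995. For Perm1 they were Npepl1, Rgmb and Adi1, with r of 0.999, 0.996 and 0.996. With 6 arrays in 2 groups such values are common: 435 symbols exceeded r = 0.9 with Ppargc1a and 761 with Perm1.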

How the data were processed

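RNA from inguinal fat was labelled with Cy3 from 0.5 µg of RNA and hybridised to 6 Agilent arrays of design 028005, per the labels. The deposited scanner files give 62976 spots each, 3671 of them controls, with processed signal intensity made by Agilent Feature Extraction (version 10.7.3.1 per the file headers, 10.7.1.1 per the submitters' processing notes), which subtracts background. The intensity of each array is therefore the authors' scanner output, background-corrected but not scaled between arrays. Other columns hold flags per spot for background, saturation and outliers, as deposited. A deposited table covering the whole series was left out, because its 18 columns of per-sample values could not be matched to single samples.

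Signals were log2 transformed and the log2 of the array's 75th percentile over non-control probes subtracted. Spots with an outlier flag were set to missing, and spots of a probe averaged. Probes well above background on 3 or more of 6 arrays were kept (38460 of 55681). Groups were compared at probe level with limma 3.58.1 (lmFit, eBayes; R 4.3.3), two-sided, with Benjamini-Hochberg adjustment over all kept probes and a threshold of 0.05. Context lists used the brightest probe of each gene, and from each list the text names members past the threshold, otherwise those with the 2 smallest p-values; Acta1, Ckm, Adipoq and Ucp1 were always named. Other listed genes named in the text were chosen after their values were seen. Genes most like Ppargc1a and Perm1 were the 3 symbols of highest Pearson correlation. Probe pairs were compared by exact permutation. Accessions of 26762 probes matched the RefSeq gene table of assembly GRCm38.p6, which named Perm1.

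The limma step was tested on simulated data with known changes in 200 probes, of which 69% were recovered. Every planted change was larger than the difference of any member probe. The share recovered therefore does not apply to differences of the sizes reported here. Of the probes called there, 6.12% were wrong. Alternatives were other scalings and background corrections (normexp with an offset of 50, quantile, median, spike-ins), filters, slide, age, a replicate block and leaving out each array. The 10 genes and all lists were chosen with earlier results of these data known.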

Additional observations from a re-analysis of the deposited data

How the results depend on the processing

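With 75th percentile scaling, 0 of 38460 probes passed the adjusted threshold in limma, although 10041 had an unadjusted p under 0.05. Scaling to spike-ins gave 6, and keeping only probes well above background on all 6 arrays gave 46. Leaving out 1 array gave 0 to 5374 probes past the threshold, 0 to 3 member probes past it, 4 to 9 member probes lower and 0 to 1 higher at an unadjusted p under 0.05. The 5374 and the 3 came without DIO replicate 1, when the groups lie on different slides; the 3 were the brighter Ppargc1a probe (adjusted p = 0.045), Ppara A_55_P2055854 (0.044) and Perm1 (0.036). Without DIO replicate 2, 4 member probes were lower, and without DIO replicate 3, 9. Against 7 lower and 0 higher member probes, normexp gave 1 higher, spike-ins 2 lower and 3 higher, and age as a covariate 0 lower and 1 higher. Of the alternatives for single member probes, 320 kept direction and side of the threshold, 29 reversed and 5 passed the threshold. Settings that change only the filter, the variance estimate or the replicate block leave a fold change as it is, so these cannot reverse. Slide as a block and slide 1 alone give the same fold changes. The count of 320 is therefore no measure of how stable the directions are.

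Spike-in scaling turned Esrra to 0.27, Esrrg A_65_P19089 to 0.04, Nrf1 A_52_P376269 to 0.26, Gabpa A_51_P364984 to 0.33, the Tfam probes to 0.094, 0.21 and 0.25, Tfb2m to 0.10 and Ucp1 to 0.10. Slide as a block, or slide 1 alone, turned Esrrg A_55_P2006499 to −0.37, Nrf1 A_51_P201468 to −0.014, Nrf1 A_55_P2000077 to −0.13 and Acta1 to 0.16. Age as a covariate turned Ppargc1a A_55_P2011702 to 0.85, Ppargc1b to 0.13, Ppara A_55_P2071596 to 0.25, Esrra to 0.047, Esrrg A_65_P19089 to 0.45, the Tfam probes to 0.21, 0.27 and 0.18, Ucp1 to 2.35 and Adipoq to −0.011. Scaling to the muscle list turned Ppargc1a A_55_P2011702 to 0.32, or 0.15 without Myh2, and Ppargc1b to 0.072. Leaving out 1 array gave −0.998 to −0.33 for Ppargc1a A_55_P2011702, −0.093 to 0.38 for Esrrg A_55_P2006499, −0.0089 to 0.25 for Nrf1 A_51_P201468, −1.09 to 0.17 for Ucp1 and −0.029 to 0.52 for Adipoq. The cause was not tested.

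A fit with the replicate number as a replicate block gave 6 member probes lower at an unadjusted p under 0.05 and 0 past the threshold. Same-numbered arrays correlated at 0.004, −0.133 and −0.212 in their deviations from the group means, so the numbers were not taken as pairs.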

Other observations

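Lists of immune and vessel cell genes held values in both directions, and none of their genes passed the adjusted threshold in limma. Of 8 measured lymphocyte and lymph node genes, 3 were higher in DIO_CR_WR at an unadjusted p under 0.05 and 1, the complement receptor Cr2 at −0.83 ± 0.21, lower (background 5.32% higher and 21% lower). Cd3g, a subunit of the T cell receptor complex, was at 1.61 ± 0.38 and Ccl19, a lymph node chemokine, at 0.86 ± 0.15 on the log2 scale (SE, n = 3 a group; limma adjusted p of 0.127 and 0.119). Of 8 macrophage genes 2 were higher and 0 lower at that threshold: the scavenger receptor Msr1 at 1.27 ± 0.24 and the mannose receptor Mrc1 at 0.67 ± 0.15, while Cd68 and Itgam were at −0.22 and −0.21. Of 5 endothelial genes 2 were higher and 0 lower: the junction proteins Pecam1 at 0.41 ± 0.15 and Cdh5 at 0.54 ± 0.19, while Kdr and Vwf were at −0.32 and −0.33. Among 6 measured epithelial genes, 1 was higher and 1 lower at that threshold, 5 values were negative and the median was −0.46. The higher gene was Wfdc18 at 1.19 ± 0.19. The lower gene, Cdh1, was not well above background on any DIO_CR_WR array. The dimmest measurable signal there set a bound of 0.69-fold, so no decrease can be given for Cdh1.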
